A study of Mus musculus with 6 samples.

Results

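The sarcomeric myosin heavy chains are the motor proteins of the thick filament of striated muscle. The 8 genes described here, *Myh1*, *Myh2*, *Myh3*, *Myh4*, *Myh6*, *Myh7*, *Myh7b* and *Myh8*, were taken by gene symbol from the authors' normalized count table of 16247 genes and matched by Ensembl ID to the raw count table of 51912 genes. All 8 were found, and all 8 passed the filter on low counts. The series holds poly-A RNA-seq of the soleus, a calf muscle rich in slow fibers, from 3 Mustn1 KO-first heterozygous (HET) mice and 3 wild-type (WT) littermates. All 6 mice were 8 weeks old and of the strain C57BL6/N. HET mice carry 1 wild-type *Mustn1* allele and 1 KO-first allele, in which exon 1 is meant to splice into a lacZ trap with a neomycin resistance gene in every cell of the body, and this trap can let some normal splicing through. The comparison of genotypes asks whether the make-up of the myosin heavy chain pool in the soleus differs when *Mustn1* is reduced.

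Each muscle fiber is typed by the myosin heavy chain it builds, because that chain sets how fast the fiber shortens. *Myh7* encodes the slow (type I) chain, *Myh2*, *Myh1* and *Myh4* encode the fast IIA, IIX and IIB chains, *Myh3* and *Myh8* encode the embryonic and perinatal chains, *Myh6* encodes the alpha chain of the heart, and *Myh7b* encodes a related chain whose gene hosts a microRNA. The mouse soleus is a mixture that is mainly of type I and IIA fibers, with fewer IIX fibers, and IIB fibers are typical of fast muscles.

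Libraries held between 26790075 and 50368796 reads on genes, with 1 mouse per library. *Mustn1* was read 471, 452 and 574 times in HET and 691, 817 and 1504 times in WT mice. This was -0.96 ± 0.15 (SE) on the log2 scale of HET over WT, with adjusted p = 0.0452 by the edgeR quasi-likelihood method. The adjusted p was 1.77e-06 by DESeq2, 0.0673 by limma-voom and 0.0606 by edgeR without robust estimation. The labels give the mice as male, but *Xist* had 3858 to 9154 reads in each library, and 4 Y-linked genes together had 0 to 12. Muscle fiber markers (8 genes such as *Acta1*, *Ckm* and *Ttn*) summed to between 74195 and 87508 CPM, the depth-normalized read count, in HET and between 80742 and 86920 CPM in WT mice. Macrophage markers summed to between 86.1 and 124 CPM in HET and between 49.3 and 55.0 CPM in WT mice. Of these 10 genes, 5 were higher in HET past the threshold by edgeR, 7 by DESeq2 and 2 by limma-voom. Over all genes tested, 0.15% passed by edgeR, 213 of 29081 by DESeq2 and 3 of 14696 by limma-voom. The DESeq2 total is every gene with at least 1 read, without the filter on low counts. Fibroblast markers summed to between 1937 and 3001 CPM in HET and between 944 and 1492 CPM in WT mice. Of these, 1 of 10 passed the threshold by edgeR, 5 by DESeq2 and 0 by limma-voom. Tendon markers summed to between 372 and 664 CPM in HET and between 120 and 300 CPM in WT mice. Of these, 0 of 8 passed the threshold by edgeR, 1 by DESeq2 and 0 by limma-voom. Both lists were likewise apart. At an unadjusted p below 0.05 by edgeR were 9 of 10 macrophage, 9 of 10 fibroblast and 6 of 8 tendon markers, against 7.76% of all genes. None of the markers of these 3 lists was without reads. Their part in the myosin values was not tested. The summed markers of adipocytes, endothelial cells, vascular smooth muscle, red blood cells and Schwann cells overlapped between genotypes, with 0 genes past the threshold by edgeR, DESeq2 or limma-voom and 0 at an unadjusted p below 0.05. Of the adipocyte markers, 6 of 7 were above 0 on the log2 scale of HET over WT, with a median of 0.95. The exception was *Fabp4* (-0.13), which made up most of their sum. In whole-muscle RNA, fewer fibers of a type and less RNA per fiber cannot be told apart.

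Of the 8 members, 5 lie head to tail on the plus strand of chromosome 11 in build GRCm38, in the order *Myh3*, *Myh2*, *Myh1*, *Myh4* and *Myh8*. They span chr11:67078300-67308634, or 230.3 kb. *Myh3* is 68.7 kb away from *Myh2*, and the gaps between the adult fast genes are short, 2.53 kb from *Myh2* to *Myh1* and 13.5 kb from *Myh1* to *Myh4*. *Myh6* and *Myh7* lie 3.76 kb apart on the minus strand at chr14:54941981-54994634, and *Myh7b* stands alone at chr2:155611212-155634307. The count table lists the 4 abundant genes as ENSMUSG00000053093 (*Myh7*), ENSMUSG00000033196 (*Myh2*), ENSMUSG00000056328 (*Myh1*) and ENSMUSG00000057003 (*Myh4*).

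The sequence just upstream of the start sites is shown because the fast genes, which sit side by side, share letters there. Among the 250 bases upstream of the RefSeq start site (GRCm38.p6), a run of 14 letters is the longest that *Myh1*, *Myh2*, *Myh4* and *Myh8* have in common. It was found in 4 of 27025 genes with such a window when both strands were searched, and these 4 are the members named. The run, in capitals below, starts 160, 125, 158 and 54 bases upstream of the start site of *Myh1*, *Myh2*, *Myh4* and *Myh8*. Each stretch has 50 bases before the run and 40 after it, on the plus strand.
Myh1, chr11:67199892-67199995: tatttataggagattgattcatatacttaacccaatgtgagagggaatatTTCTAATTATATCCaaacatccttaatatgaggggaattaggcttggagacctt
Myh2, chr11:67170852-67170955: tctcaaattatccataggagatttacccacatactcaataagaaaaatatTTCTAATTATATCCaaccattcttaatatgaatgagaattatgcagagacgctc
Myh4, chr11:67237604-67237707: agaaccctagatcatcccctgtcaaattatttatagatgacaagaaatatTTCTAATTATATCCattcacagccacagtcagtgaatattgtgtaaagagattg
Myh8, chr11:67277020-67277123: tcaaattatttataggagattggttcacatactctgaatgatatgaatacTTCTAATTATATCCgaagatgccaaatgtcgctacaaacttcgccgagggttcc

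The 3 adult fast genes shared a longer run of 20 letters, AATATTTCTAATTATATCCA, which contains the first and was found in 3 of 27025 genes, those 3. With *Myh3* included, the longest common run was TCAAATT, present in 3.58% of genes. The letters TATAAA were found on either strand in the windows of *Myh1*, *Myh3*, *Myh4* and *Myh8* and in 14.3% of all genes. These matches describe letters in these windows, and the RNA measurements here do not address binding to them.

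Of the 8 members, 3 contain a microRNA gene of the family sometimes called myomiRs. They are shown because their seeds, bases 2 to 8, in capitals, are the same in *Myh6* and *Myh7* and nearly the same in *Myh7b*. RefSeq (GRCm38.p6) places them within *Myh6* and *Myh7* on the minus strand of chromosome 14 and within *Myh7b* on the plus strand of chromosome 2.
miR-208a-3p in Myh6, chr14:54949072-54949093: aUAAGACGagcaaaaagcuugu
miR-208b-3p in Myh7, chr14:54975710-54975731: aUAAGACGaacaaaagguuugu
miR-499-5p in Myh7b, chr2:155622893-155622913: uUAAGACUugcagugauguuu
miR-208a-3p and miR-208b-3p have the same seed, and that of miR-499-5p differs from it in the last base. Poly-A libraries do not measure mature microRNAs, and the microRNA genes themselves held 0 (*Mir208a*), 19 (*Mir208b*) and 7 (*Mir499*) reads over all 6 libraries.

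Because the chains are so alike, some reads cannot be assigned. Of the 50-base windows of the longest coding transcript, 73.3% of those of *Myh1*, 73.1% of *Myh2*, 81.1% of *Myh4* and 78.6% of *Myh8* occur in no other gene, against 95.2% of *Myh3* and 100% of *Myh7b*. *Myh1* and *Myh2* share 1186 windows, and *Myh6* and *Myh7* share 1373. Reads that align to several places were left out of the counts, so these genes are counted over part of their length.

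Together the 8 genes took between 3.25% and 3.72% of all reads on genes. Their summed level was 34440 ± 2470 CPM (SD, n = 3) in HET and 34773 ± 1309 CPM (SD, n = 3) in WT mice. In single mice it was 32288, 37137 and 33894 CPM in HET 1 to 3 and 35811, 33303 and 35204 CPM in WT 1 to 3, so that the genotypes overlapped (log2 ratio -0.014, two-sided exact permutation p = 1). For 3 mice against 3, the smallest p this test can give is 0.1, and 10 such tests were made, of the 8 shares, of the share of the adult fast chains and of this sum.

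Compared per length, the order of levels was *Myh2*, *Myh7*, *Myh1*, *Myh4*, *Myh3*, *Myh7b*, *Myh6* and *Myh8*. *Myh2* was at 2017 ± 208 CPM per kb of exon in HET and 1829 ± 48.3 in WT mice (SD, n = 3 each). *Myh7* followed with 1651 ± 59.5 in HET and 1638 ± 46.2 CPM per kb in WT mice (SD, n = 3 each). *Myh2* was above *Myh7* by 1.05 to 1.30 times in each mouse by exon length. This length was 7137 bases for *Myh2* and 8586 for *Myh7*, whose longest coding transcripts have 6083 and 6230 bases. When length was counted in windows found in no other gene, the ratio was 0.956 to 1.18 and *Myh2* was higher in 5 of 6 mice. By reads alone, without length, the ratio was 0.877 (WT 1) to 1.08 (HET 2). *Myh1* came next with 763 ± 112 in HET and 947 ± 228 CPM per kb in WT mice (SD, n = 3 each). *Myh3* (16.4 to 25.7 CPM per kb over the 6 mice) and *Myh7b* (11.7 to 15.2) did not overlap, and the lowest were *Myh6* (2.34 to 3.33) and *Myh8* (1.49 to 3.25). These last neighbors overlapped, and *Myh6* was above *Myh8* in 5 of 6 mice by exon length and in 0 of 6 by windows. *Myh4* had no fixed place, as it was above *Myh3* in 5 of 6 mice.

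**Figure D1:**
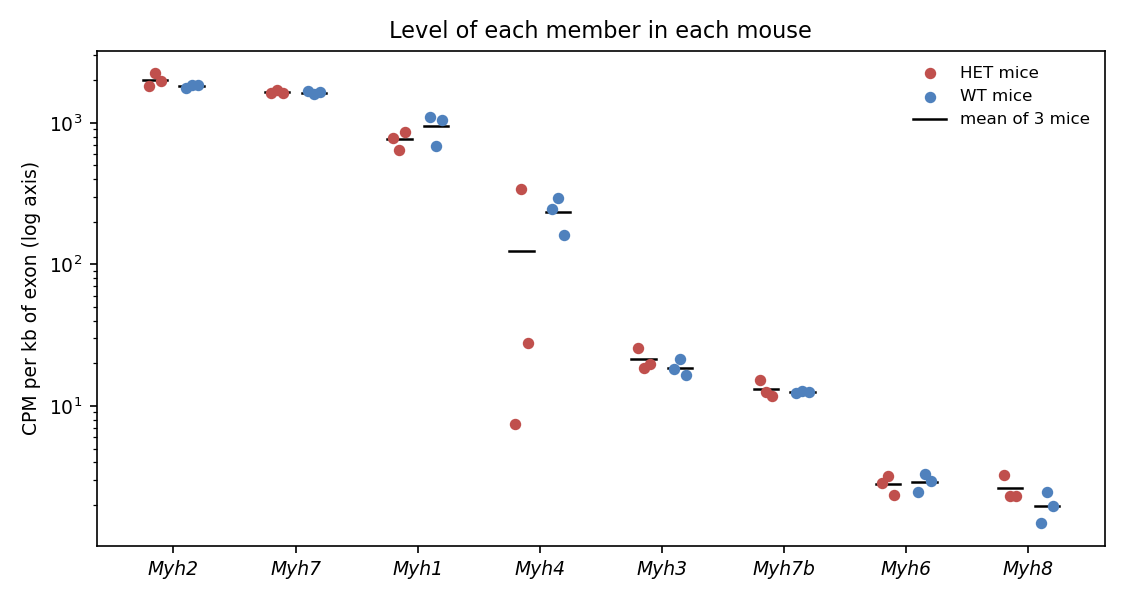
Level of each member in CPM per kb of exon (log axis), 1 point per mouse, with HET in red, WT in blue and a line at the mean of 3 mice. Of the 8 genes *Myh4* had the widest spread, from 7.43 CPM per kb in HET 1 to 339 in HET 2, while *Myh7* stayed between 1589 and 1720.

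The slow chain was the steadiest member. *Myh7* was at 13879, 14766 and 13881 CPM in HET and 14432, 13642 and 14111 CPM in WT mice. All 6 mice lay within 1.08 times of each other, and of 1334 genes with a mean of at least 100 CPM, 96.9% varied more between the lowest and the highest mouse. As a share of the reads of the 8 genes, *Myh7* made up 43.0%, 39.8% and 41.0% in HET and 40.3%, 41.0% and 40.1% in WT mice. The means were 41.2% ± 1.63 and 40.4% ± 0.458 (SD, n = 3 each), and the genotypes overlapped (exact permutation p = 0.7). Without HET 1 the difference of 0.784 percentage points became -0.0925. The 95% Wilson intervals of the shares of single mice were at most 0.0995 percentage points to each side, which covers counting error only.

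Together the adult fast chains took 58.0% ± 1.80 of the reads in HET and 58.9% ± 0.550 in WT mice (SD, n = 3 each, exact permutation p = 0.7). Without HET 1 the difference of -0.874 percentage points in this sum became 0.0985. Inside this sum, the 3 genes were divided differently from mouse to mouse. *Myh2*, the IIA chain, held 40.5%, 43.1% and 41.6% in HET and 35.3%, 39.8% and 37.6% in WT mice. The 3 HET shares were all above the 3 WT shares, with means of 41.7% ± 1.30 and 37.6% ± 2.25 (SD, n = 3 each), and the exact permutation p of 0.1 is the smallest the design allows. The difference of 4.16 percentage points stayed between 3.03 and 5.28 with 1 mouse left out. *Myh2* was the only one of the 8 genes whose shares did not overlap between genotypes. Over all genes tested, 13.6% had CPM that did not overlap between genotypes, against 0 of the 8 members in CPM. On the CPM scale *Myh2* itself overlapped, with 13076, 16003 and 14114 CPM in HET and 12653, 13265 and 13235 CPM in WT mice.

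*Myh1*, the IIX chain, held 15.4%, 10.996% and 16.2% in HET and 19.6%, 13.1% and 18.9% in WT mice. HET 2 and WT 2 were the lowest of their genotypes, and the groups overlapped (14.2% ± 2.81 against 17.2% ± 3.59, SD, n = 3 each, exact permutation p = 0.3). Its levels were 4976, 4083 and 5492 CPM in HET and 7031, 4357 and 6658 CPM in WT mice.

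*Myh4*, the IIB chain, was the most variable gene. It was read 1674, 54809 and 7332 times in HET and 43961, 50021 and 48168 times in WT mice. This was 44.7, 2042 and 167 CPM in HET and 1470, 1774 and 976 CPM in WT mice. HET 1 and HET 3 were far below the other mice and HET 2 was the highest of all 6, so the lowest and the highest mouse were 45.7 times apart, and 0 of the 1334 genes with a mean of at least 100 CPM had a wider range. The next were *Fmod* and *Scd1*, with ranges of 3.43 and 3.26 on the log2 scale against 5.51 for *Myh4*. As a share of the reads of the 8 genes, *Myh4* was 0.138%, 5.50% and 0.493% in HET and 4.11%, 5.33% and 2.77% in WT mice (exact permutation p = 0.4). The coefficient of variation of CPM was 149% in HET and 28.6% in WT mice. The fitted log2 difference of HET from WT was -0.91 with all mice, -3.71 without HET 2 (edgeR adjusted p = 0.390), -0.35 without HET 1 and -0.43 without HET 3. With limma-voom, which averages log values, it was -2.48 with all mice (adjusted p = 0.598).

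When added, *Myh1* and *Myh4* held 15.5%, 16.5% and 16.7% in HET and 23.7%, 18.4% and 21.7% in WT mice, which did not overlap. This sum was chosen after the values were seen, so no p is given for it. The remainder is almost wholly *Myh2* and *Myh7*, so this sum and the share of *Myh2* are not separate measurements. In HET 2, where *Myh4* was high, *Myh1* was the lowest of the 6 mice.

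**Figure D2:**
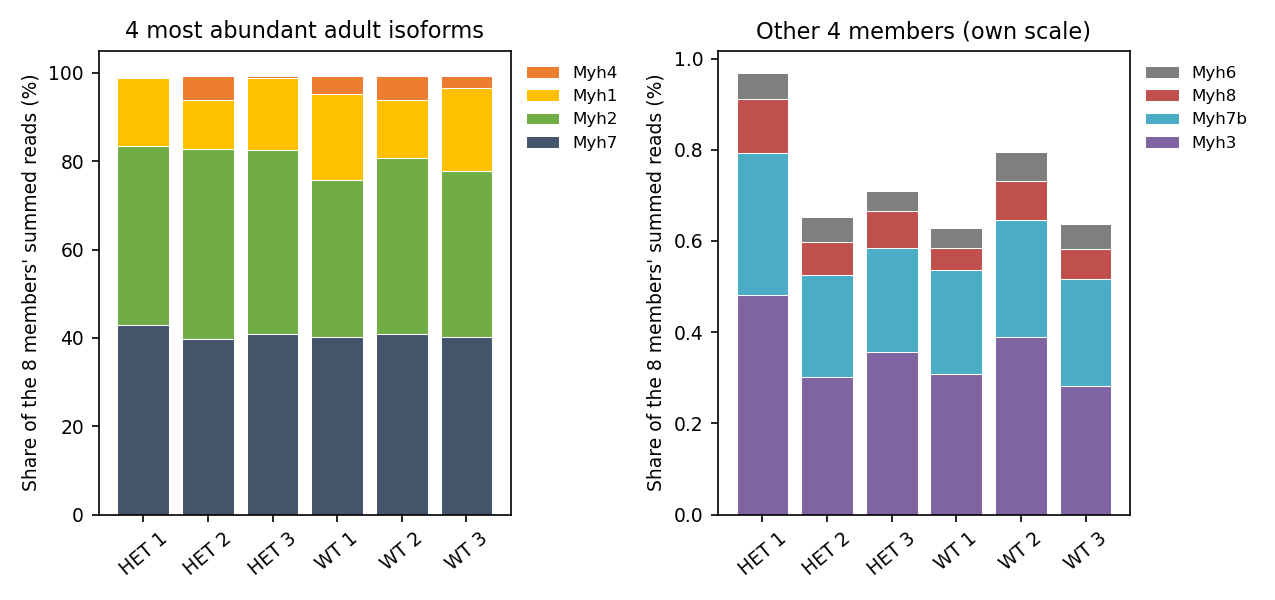
Share of the summed reads of the 8 members in each mouse in percent, with the 4 most abundant adult isoforms on the left and the other 4 on their own scale on the right. The *Myh7* segment is nearly level (39.8% to 43.0%), the *Myh2* segment is larger in the 3 HET mice, and the *Myh4* segment almost vanishes in HET 1 (0.138%) and HET 3 (0.493%).

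The other 4 genes added up to 0.777% ± 0.169 of the reads in HET and 0.687% ± 0.0948 in WT mice (SD, n = 3 each). *Myh3*, the embryonic chain made during development and regeneration, was at 156, 112 and 121 CPM in HET and 110, 130 and 99.5 CPM in WT mice, and the genotypes overlapped. *Myh8*, the perinatal chain, was at 38.3, 27.2 and 27.2 CPM in HET and 17.5, 28.9 and 23.0 CPM in WT mice. HET 1 was the highest mouse for both, and for both WT 2 lay inside the HET range. *Myh7b* was at 101, 83.1 and 77.7 CPM in HET and at 81.6, 85.3 and 82.7 CPM in WT mice, which were close to each other. *Myh6* was read between 465 and 928 times per library, at 17.8 ± 2.72 CPM in HET and 18.5 ± 2.81 CPM in WT mice (SD, n = 3 each). The cardiac markers *Nppa*, *Nppb* and *Myl7* had 4, 6 and 2 reads over all 6 libraries. The 6 markers of that list summed to between 10.1 and 10.5 CPM in HET and between 9.58 and 11.2 CPM in WT mice, most of it from *Myl4*.

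In the test of HET against WT over all 14696 genes, 22 genes (0.15%) passed an adjusted p of 0.05, 21 of them higher and 1 lower in HET, and 0 of the 8 members did by edgeR's quasi-likelihood test. At an unadjusted p below 0.05 there were 0 of 8 members by edgeR, against 7.76% of all genes. There were 1 of 8 by DESeq2, against 1087 of 29081 genes, and 2 of 8 by limma-voom, against 1171 of 14696. The DESeq2 total includes genes below the filter on low counts, which all 8 members passed. The adjusted threshold was passed by 0 of 8 with DESeq2 and with limma-voom, against 213 and 3 of all genes. The median log2 fold change of the 8 genes was 0.039, with 5 above 0, against -0.018 for all genes tested, of which 45.6% were above 0.

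For the abundant chains, the fitted intervals limit the size of any difference. *Myh7* had a log2 fold change of 0.012 ± 0.081 (SE) with a 95% interval of -0.17 to 0.19. *Myh2* had 0.14 ± 0.094 (SE, interval -0.068 to 0.35), and *Myh1* had -0.31 ± 0.18 (SE, interval -0.72 to 0.10). For *Myh4* the interval of -4.97 to 3.15 includes large differences either way. *Myh3* had 0.19 ± 0.14 (SE), *Myh7b* had 0.066 ± 0.10 (SE) and *Myh6* had -0.061 ± 0.15 (SE). *Myh8* had the largest positive value, 0.42 ± 0.20 (SE, interval -0.022 to 0.86), and the smallest adjusted p of the 8 genes, 0.681 from edgeR. With 1 mouse left out, these values ran from -0.50 (without WT 2) to -0.18 (without WT 1) for *Myh1* and from 0.072 (without HET 2) to 0.21 (without HET 1) for *Myh2*. They ran from 0.039 (without HET 1) to 0.30 (without WT 2) for *Myh3* and from 0.23 (without HET 1) to 0.61 (without WT 2) for *Myh8*. Without the filter on low counts, where 29081 genes were tested and 404 passed, the adjusted p of *Myh8* was 0.0313 at a log2 fold change of 0.43.

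**Figure D3:**
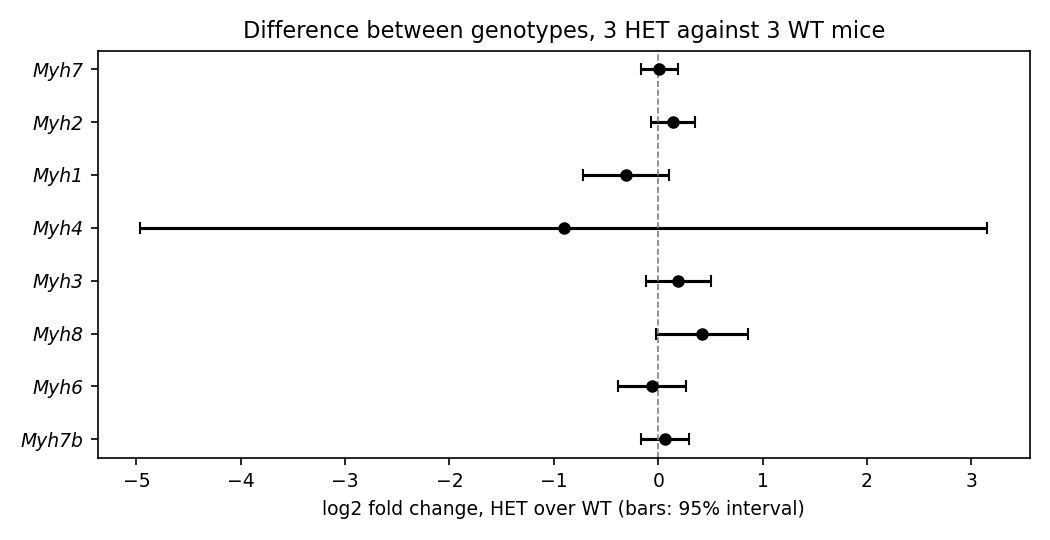
Log2 fold change of each member in HET over WT mice (3 against 3), with points for the edgeR estimate and bars for its 95% interval. Every bar crosses 0, from the narrow one of *Myh7* (-0.17 to 0.19) to that of *Myh4* (-4.97 to 3.15).

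The genes that work with these chains were read from the same test. None of the 8 lists below had a gene past the threshold with edgeR, DESeq2 or limma-voom (0 in each), and the counts at an unadjusted p below 0.05 are given for each list. Fast fiber genes, which encode fast light chains, troponins, the calcium pump and others, were all below 0 (0 of 12 above 0, 1 at an unadjusted p below 0.05), with a median log2 fold change of -0.20 against -0.018 for all genes. Among them *Atp2a1*, the fast calcium pump, had the highest value, -0.074, and *Mybpc2*, the fast myosin-binding protein C, the lowest, -0.86 ± 0.50 (SE). The TMM scaling factors were 1.002 to 1.045 in HET and 0.9646 to 0.9806 in WT mice, which lowers values of HET over WT relative to library totals. With library totals *Atp2a1* was at -0.0012. The part of these factors in the counts of genes above 0 in the lists was not tested. *Mybpc2* was at 85.1, 301 and 182 CPM in HET and 420, 344 and 266 CPM in WT mice. *Actn3*, the fast alpha-actinin, was at 262, 739 and 442 CPM in HET and 877, 673 and 724 CPM in WT mice. *Pvalb*, the calcium buffer parvalbumin, was at 205, 426 and 295 CPM in HET and 684, 552 and 429 CPM in WT mice. *Actn3* and *Pvalb* were named after their values were seen. In all 3 genes HET 1 was the lowest mouse and HET 3 the next, as in *Myh4*, and HET 2 was the highest of the HET mice. The differences in these 3 genes were smaller than for *Myh4*, with the highest mouse 3.34 to 4.94 times the lowest. HET 1 and HET 3 were also the lowest mice, in either order, for *Myl1*, *Tnnt3*, *Tnni2*, *Tnnc2*, *Atp2a1* and *Myoz1*. There the highest mouse was at most 1.44 times the lowest. This order did not hold for *Mylpf*, *Casq1* and *Mylk2*.

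**Figure D4:**
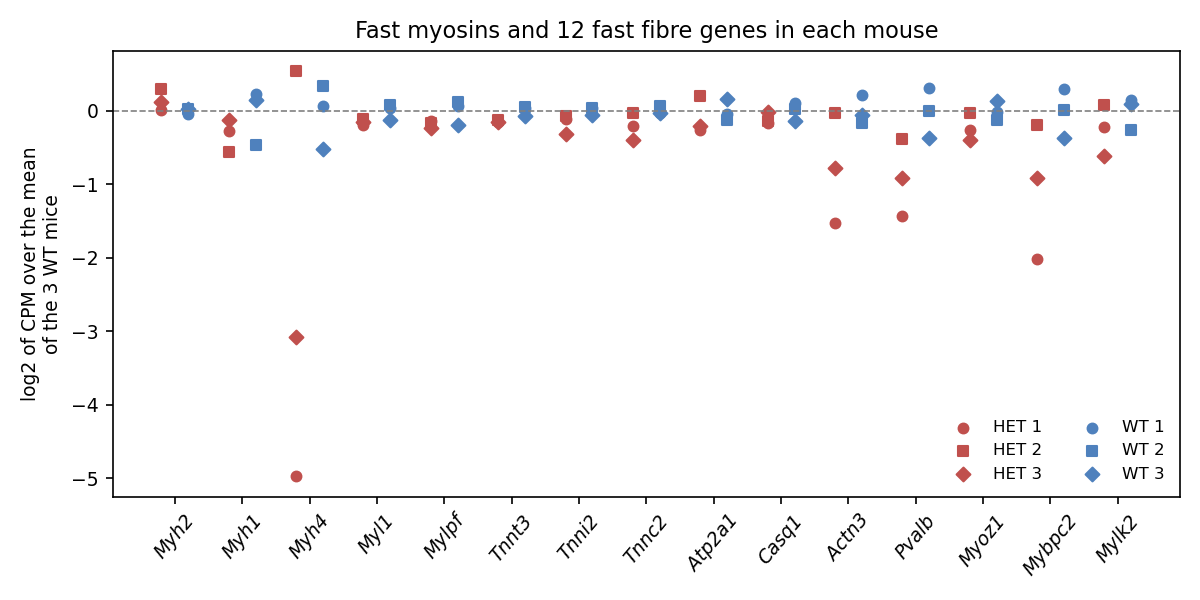
Log2 of CPM over the mean of the 3 WT mice for *Myh2*, *Myh1*, *Myh4* and the 12 fast fiber genes, with HET in red, WT in blue and a marker shape for each replicate number. HET 1 (circle) and HET 3 (diamond) are lowest for *Myh4*, *Actn3*, *Pvalb* and *Mybpc2*. They are also lowest, with less spread, for *Myl1*, *Tnnt3*, *Tnni2*, *Tnnc2*, *Atp2a1* and *Myoz1*, but not for *Myh2*, *Myh1*, *Mylpf*, *Casq1* and *Mylk2*. Troponins and light chains stay within 1.38 times between the lowest and the highest mouse.

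Slow fiber genes had a median of -0.081, with 1 of 12 above 0 and 2 at an unadjusted p below 0.05. They ran from *Csrp3* (0.16), a Z-disc protein, to *Pln* (-0.53), the inhibitor of the slow calcium pump. Summed, they were at 35440 to 38705 CPM in HET and 36450 to 41154 CPM in WT mice. Known regulators of fast myosin genes had a median of -0.046 (4 of 12 above 0, 1 at an unadjusted p below 0.05), and *Mafa*, a large Maf transcription factor, had the lowest value (-0.26). Regulators of slow myosin genes, among them the calcineurin targets of the Nfat family, had a median of -0.0036 (7 of 14 above 0, 0 at an unadjusted p below 0.05), from *Nfatc4* (0.37) to *Ppargc1a* (-0.17), the coactivator of oxidative metabolism.

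Genes of myosin folding and turnover, such as the chaperone *Unc45b*, had a median of -0.066 (0 of 7 above 0, 0 at an unadjusted p below 0.05). They lay between *Hsp90aa1* (-0.060) and *Trim63* (-0.20), the ubiquitin ligase MuRF1. Genes of developing and regenerating fibers had a median of -0.018 (6 of 12 tested above 0, 2 at an unadjusted p below 0.05). They ran from *Chrng* (0.63 ± 0.44, SE), the fetal acetylcholine receptor subunit, to *Myf5* (-0.59), a myogenic factor. *Chrng* was low, with at most 0.820 CPM in any mouse. The list summed to between 248 and 253 CPM in HET and between 227 and 274 CPM in WT mice. Muscle spindles, the stretch sensors whose fibers keep *Myh3*, *Myh6*, *Myh7b* and *Myh8*, were represented by 5 genes with a median of 0.065 (3 of 5 above 0, 2 at an unadjusted p below 0.05), from *Egr3* (0.55 ± 0.42, SE) to *Gdnf* (-0.65). *Egr3* was low as well, with at most 0.729 CPM in any mouse. The 6 other class II heavy chains of non-muscle, smooth and extraocular muscle had a median of 0.15 (5 of 6 above 0, 1 at an unadjusted p below 0.05), from *Myh15* (0.98 ± 0.44, SE) to *Myh13* (-0.053 ± 0.22, SE). Both were low, with at most 1.01 CPM for *Myh15* and between 13.7 and 25.2 CPM for *Myh13* in any mouse.

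**Figure D5:**
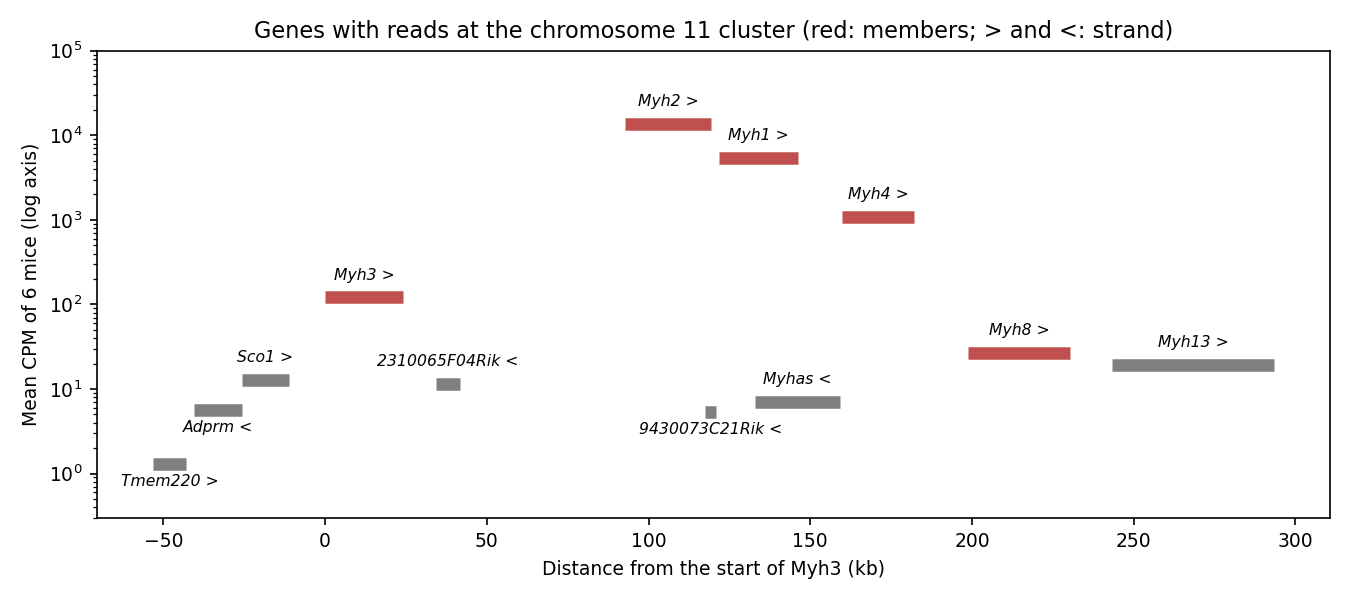
Genes with reads at the chromosome 11 cluster, placed by distance from the start of *Myh3* in kb, at the mean CPM of 6 mice (log axis), with members in red and > or < for the strand. Along the plus strand the level falls from *Myh2* over *Myh1* and *Myh4* to *Myh8* and *Myh13*.

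Within 100 kb of the members, 10 other genes lie at the chromosome 11 cluster, 24 at the chromosome 14 pair and 13 at *Myh7b*. Of these, 7, 13 and 6 were tested, and 0 at each locus passed the threshold with edgeR, DESeq2 or limma-voom. At an unadjusted p below 0.05 by edgeR there were 0, 1 and 0. On chromosome 11, *Myh13* lies after *Myh8*, and *2310065F04Rik*, the long non-coding RNA linc-MYH, lies between *Myh3* and *Myh2* on the minus strand. *2310065F04Rik* was at 11.99, 10.1 and 11.2 CPM in HET and 11.7, 11.2 and 13.2 CPM in WT mice, and so did not follow *Myh4*.

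Transcripts on the strand opposite to the abundant chains varied by mouse in a way of their own. *Myhas*, which runs from inside *Myh1* to just before *Myh4*, was at 5.50, 7.19 and 3.65 CPM in HET and 13.1, 9.04 and 3.22 CPM in WT mice. *Mhrt*, which overlaps the end of *Myh7* on the other strand, was at 10.1, 14.5 and 5.83 CPM in HET and 18.1, 13.7 and 2.80 CPM in WT mice. *9430073C21Rik*, which overlaps the end of *Myh2*, and *Gm29015*, inside *Myh7*, were also lowest in WT 3 and highest in WT 1. *mt-Nd6*, the mitochondrial gene that lies opposite the other mitochondrial protein genes, was lowest in WT 3 as well, at 48.9 CPM, against 217 and 255 CPM in WT 1 and WT 2, and was chosen after its values were seen. Counting was stranded, and the part of reads on the wrong strand in these values was not tested.

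The genes most alike to the 4 abundant chains over the 6 mice are given as a description, since 6 libraries and 14695 genes leave many high correlations. For *Myh7* these were *Hebp1*, *Cdh15* and *Ctsb* (Pearson r of log2 CPM 0.976 to 0.993), and for *Myh2* *Grin2d*, *Homer3* and *Bcr* (0.989 to 0.993). For *Myh1* these were *Ide*, *Myg1* and *Rpf1* (0.986 to 0.992), and for *Myh4* *Gfod2*, *Efcab5* and *Zfp524* (0.983 to 0.987). *Grin2d* and *Efcab5* were low, with at most 0.559 and 0.502 CPM in any mouse. Between 26 and 43 genes reached an r of 0.95 with each chain. No pair of these 4 chains was among them, as *Myh2* and *Myh7* had an r of 0.54, *Myh1* and *Myh2* of -0.65 and *Myh1* and *Myh4* of -0.028.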

How the data were processed

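Soleus RNA was sequenced as stranded poly-A libraries with single 50-base reads. Per the labels and the study's methods, the authors aligned reads to GRCm38.p6 with STAR 2.7.3a and made the deposited raw counts per gene with featureCounts 2.0.3, in its reverse-stranded mode and without multi-mapping reads. The authors also deposited a normalized signal, in which every library's counts are divided by its DESeq2 size factor. Their deposited comparison of genotypes (fold changes and p-values) was not used. All values were computed from the raw counts (0 value columns lacked a sample), with R 4.3.3, edgeR 4.0.16, limma 3.58.1, DESeq2 1.42.0 and Python 3.11.15. Genes were kept by filterByExpr with a minimum count of 10, scaled by TMM, and compared by genotype alone with the robust quasi-likelihood test over all genes, with Benjamini-Hochberg adjustment and a threshold of 0.05. CPM values use the TMM factors. The SE of a log2 fold change is its size over the square root of F. Shares and sums were compared by two-sided exact permutation tests. The members, the lists and the rule for named genes (all members, the ends of each list and genes past the threshold, neighbors within 100 kb, and the 3 genes most alike to each of 4 chains) were chosen with earlier results of these data known. Marker genes past the threshold are given as counts, and the gene at the upper end of 1 list is not reported here. Scripts were tested on simulated data. No source says which mice shared a litter. Mean chi-square per gene between mice of a genotype lay between 15.0 and 42.8, where repeated counting gives about 1. Alternatives were other scaling, filters, tools, length units, the replicate number as a block, and each mouse left out.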

Additional observations from a re-analysis of the deposited data

How the results depend on the processing

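The number of genes past the threshold, 22, was 404 without the filter on low counts, 213 with DESeq2, 3 with limma-voom and 6 without robust estimation. With 1 mouse left out it ran from 0 (without HET 1, HET 3, WT 1 or WT 2, where between 768 and 1242 genes had an unadjusted p below 0.05 with edgeR) to 83 (without WT 3), and these fits have fewer mice. Whether the replicate numbers pair the mice is not known. The correlations of same-numbered deviations from the group means were 0.203, -0.00578 and -0.0349. Those of differently numbered mice ran from -0.137 to 0.133. With the number as a replicate block 116 genes passed, and 130 with a gene length offset and the replicate block. In the paired fits the shares of *Myh7* and of the adult fast chains differed by 0.784 and -0.874 percentage points (exact sign-flip p = 0.75 each), and none of the 8 members passed the threshold. The log2 fold change of *Myh4* was -2.47 with the replicate block and -2.49 with the gene length offset and the block.

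Of 128 fits of the members under alternatives, 1 passed the threshold (*Myh8* without the filter) and 6 turned the sign. At an unadjusted p below 0.05 there were 3 of 8 members without the filter, against 2019 of all 29081 genes. There were 2 of 8 with library totals, against 1334 of 14696 genes, and 1 of 8 with the replicate block, against 1163 of 14696. With library totals in place of TMM the log2 fold change was 0.012 for *Myh6*, 0.020 for *Hsp90aa1* and 0.017 for *Myh13*, each turned in sign. With 1 mouse left out the values ran from -0.17 to 0.058 for *Myh6*, -0.011 to 0.030 for *Myh7*, -0.052 to 0.15 for *Myh7b*, -0.22 to 0.012 for *Atp2a1*, -0.19 to 0.069 for *Hsp90aa1* and -0.30 to 0.14 for *Myh13*. The cause was not tested. Other ends of lists moved by over 1.5 times with 1 mouse left out, from -0.67 to -0.26 for *Pln*, 0.063 to 0.23 for *Csrp3*, -1.35 to -0.51 for *Mybpc2*, -0.48 to -0.094 for *Mafa*, -0.27 to -0.094 for *Ppargc1a*, -0.36 to -0.041 for *Trim63*, 0.31 to 1.04 for *Chrng*, 0.27 to 1.19 for *Egr3* and 0.62 to 1.41 for *Myh15*. With 1 mouse left out *Mustn1* stayed between -1.09 and -0.88 and its adjusted p ran from 0.0314 to 0.280, above the threshold in 4 of 6 fits. The shares of members other than *Myh7* moved by less than 1 SD of the HET mice under all 66 alternatives run. So did the shares of *Myh7* and of the adult fast chains and the summed CPM under 10 each. Against the SD of the WT mice some moved by more, among them *Myh7* and the adult fast chains without HET 1. The difference of the adult fast chains then turned from -0.874 to 0.0985 percentage points. The SDs are wide, and with 1 mouse left out the difference in share ran from -5.07 (without WT 2) to -1.40 (without HET 2) percentage points for *Myh1* and from -3.75 (without HET 2) to -1.07 (without HET 1) for *Myh4*. The lowest count of a member in a library was 465 reads, a counting error of 4.64%, against a coefficient of variation between mice of at least 15.2% for that gene, *Myh6*.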
